A study of Mus musculus with 2 samples.

Results

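The miRNAs described here come from a pair of mouse gene clusters that arose by duplication from a common ancestor. The miR-106b/93/25 cluster lies in the gene Mcm7, and the miR-106a-363 cluster lies on the X chromosome. They were chosen by name: both arms of miR-106b, miR-93 and miR-25, and the arms miR-106a-5p, miR-20b-5p, miR-18b-5p and miR-363-3p. These are 10 names, of 1477 found in either library. Counts came from 2 libraries of 1 group, replicates 1 and 2, with no control group. Both were made from mouse skin keratinocytes grown in a low-calcium medium, with exogenous expression of Dsp-BirA and with biotin treatment. Dsp-BirA joins desmoplakin, a protein of the desmosomal plaque, to the biotin ligase BirA, and biotin-labelled proteins were pulled down with their RNA on streptavidin. The aim was to learn what Argonautes, the proteins that carry miRNAs, do at the desmosome. How the fusion was delivered, and whether the libraries came from separate cultures, is not given in the sources used here. The values are levels of recovered reads, with no input library to set them against. The p-values set reads against counting error only, and measure no spread between libraries.

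A miRNA hairpin is cut into a 5p and a 3p strand, and usually a single strand, the guide, is kept by Argonaute. The guide finds its targets mainly through its seed, bases 2 to 8 from the 5′ end, so miRNAs with a shared seed can act on many of the same messages. The miR-106b/93/25 cluster sits in an intron of Mcm7 and is transcribed with it. Mcm7 encodes a subunit of the replicative helicase and is made in dividing cells. miR-106b and miR-93 are known for repressing the cell-cycle inhibitor p21, and miR-25 for repressing the cell-death protein Bim. The miR-106a-363 cluster and the better known miR-17-92 cluster are paralogs of it, and miR-17-92 is a growth-promoting cluster in many tissues.

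The sequences below show which members can share targets and which differ by so little that reads may be assigned to either. RefSeq (GRCm38.p6) held all 10 members and 1231 of the 1477 names (83.3%). Capitals mark the seed, and the prefix mmu-, for mouse, is left out elsewhere except where a member's level is first given.
mmu-miR-106b-5p: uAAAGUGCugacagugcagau
mmu-miR-93-5p: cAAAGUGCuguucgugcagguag
mmu-miR-106a-5p: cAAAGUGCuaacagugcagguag
mmu-miR-20b-5p: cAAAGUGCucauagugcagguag
mmu-miR-17-5p: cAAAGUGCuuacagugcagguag
mmu-miR-20a-5p: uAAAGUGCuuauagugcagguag
mmu-miR-25-3p: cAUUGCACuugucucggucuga
mmu-miR-363-3p: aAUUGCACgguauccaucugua
mmu-miR-92a-3p: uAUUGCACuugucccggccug
mmu-miR-18b-5p: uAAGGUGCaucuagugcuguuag
mmu-miR-18a-5p: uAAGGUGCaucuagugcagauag
mmu-miR-106b-3p: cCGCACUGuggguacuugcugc
mmu-miR-93-3p: aCUGCUGAgcuagcacuucccg
The first 6 share the seed AAAGUGC, the next 3 share AUUGCAC and the miR-18 names share AAGGUGC. miR-106b-3p, miR-93-3p and miR-25-5p each have a seed that no other mouse miRNA of the RefSeq table used here carries. The miR-106b/93/25 names are well separated from all others: the nearest listed sequence is 3 edits from miR-93-5p, 4 from miR-25-3p and 5 from miR-106b-5p. Of the X-linked names, miR-363-3p is 7 edits from its nearest listed name, but the other 3 are near copies of miR-17-92 names. Counting positions from the 5′ end, miR-106a-5p differs from miR-17-5p by U10A alone, and miR-18b-5p differs from miR-18a-5p by A18U and A20U. miR-20b-5p differs from miR-20a-5p by U1C and U10C, and is equally near, at 2 edits, to miR-17-5p and miR-106a-5p. How reads that match several names were assigned is not given in the sources used here.

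In the RefSeq annotation of GRCm38.p6, Mir106b (chr5:138165737-138165818), Mir93 (chr5:138165523-138165610) and Mir25 (chr5:138165321-138165404) lie in this order on the minus strand. All 3 lie inside the span of Mcm7 (chr5:138164583-138172111), on its strand, and the whole cluster covers 498 bases. The X cluster is also on the minus strand and covers 875 bases. Its order is Mir106a (chrX:52742503-52742567), Mir18b (chrX:52742331-52742413), Mir20b (chrX:52742113-52742192), Mir19b-2, Mir92-2 and Mir363 (chrX:52741693-52741767). Mir106a overlaps the end of the lncRNA gene Kis2. Mir19b-2 and Mir92-2 yield miR-19b-3p and miR-92a-3p, which the miR-17-92 cluster also makes, so these counts cannot be told apart and were left out of the X cluster.

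The libraries held 3776893 and 4122955 miRNA counts. CPM below means counts per 1000000 of these, and a count of 0 allows up to 3 counts, which is 0.794 CPM in replicate 1 and 0.728 CPM in replicate 2. Intervals and such limits cover counting error only, since reads are not independent molecules. The keratinocyte label was checked on miRNA markers only as far as an epithelial origin, not against other epithelia. All 7 epithelial names were present in both libraries, with 10.6% of counts in each. Lists for blood, muscle, nerve and mesenchyme took between 0.000609% and 0.0114% of a library each.

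The miR-106b/93/25 cluster was recovered at an even level, and the X-linked members at a small fraction of it. All 6 names of the miR-106b/93/25 cluster together took 1.13% of miRNA counts in replicate 1 and 1.13% in replicate 2 (Wilson 95% intervals 1.12% to 1.14% and 1.12% to 1.14%). The 4 X-linked members took 0.0282% and 0.0285% (0.0265% to 0.0299% and 0.0269% to 0.0302%). The miR-106b/93/25 cluster thus had 39.7 ± 0.338 times the counts of these 4 members (SD, n = 2). It had 37.5 ± 0.344 times when every arm that only the X cluster makes was added to them. Neither X-linked total holds miR-19b-3p or miR-92a-3p, so the whole X cluster may have been higher and these ratios lower. The smallest two-sided p that an exact sign-flip test can give on 2 values is 0.5, so no p is given for ratios. Ratios of names are read against their SD, which over 2 libraries can lie under the counting error. The X-linked share had an SD of 0.000232%, but an interval of 0.0265% to 0.0299% in replicate 1. Of the 10 members, 7 had at least 10 counts in both libraries, 2 were found in a single library and miR-18b-5p was found in neither.

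mmu-miR-106b-5p was the most abundant member, with 4568 CPM in replicate 1 and 4448 CPM in replicate 2 (17254 and 18340 counts). It ranked 40 and 43 among all names. In mean CPM it stood between miR-709 (4021 and 5123 CPM) and the keratinocyte miRNA miR-203-3p (4347 and 4480 CPM), and the libraries of all 3 overlapped, so their order is not settled. miR-31-5p, the first of all names, had 31.5 ± 0.219 times its counts (SD, n = 2). mmu-miR-93-5p followed with 3693 and 3795 CPM, below miR-106b-5p in both libraries. miR-106b-5p had 1.20 ± 0.0457 times the counts of miR-93-5p (SD, n = 2). mmu-miR-25-3p, the only member of the Mcm7 cluster with the AUUGCAC seed, had 1243 and 1225 CPM. That placed it well under its neighbours: miR-106b-5p had 3.65 ± 0.0327 times and miR-93-5p 3.03 ± 0.0880 times its counts (SD, n = 2).

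The strands usually discarded were not rare for miR-93 and miR-106b. mmu-miR-93-3p had 1092 and 1054 CPM and ranked 97 and 95, close behind miR-25-3p, which had 1.15 ± 0.0171 times its counts (SD, n = 2). mmu-miR-106b-3p had 660.3 and 732 CPM, and its libraries did not overlap those of miR-93-3p. Both were above every X-linked member in both libraries. mmu-miR-25-5p was the opposite case, with 14 counts in replicate 1 (3.71 CPM) and 0 in replicate 2.

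**Figure D1:**
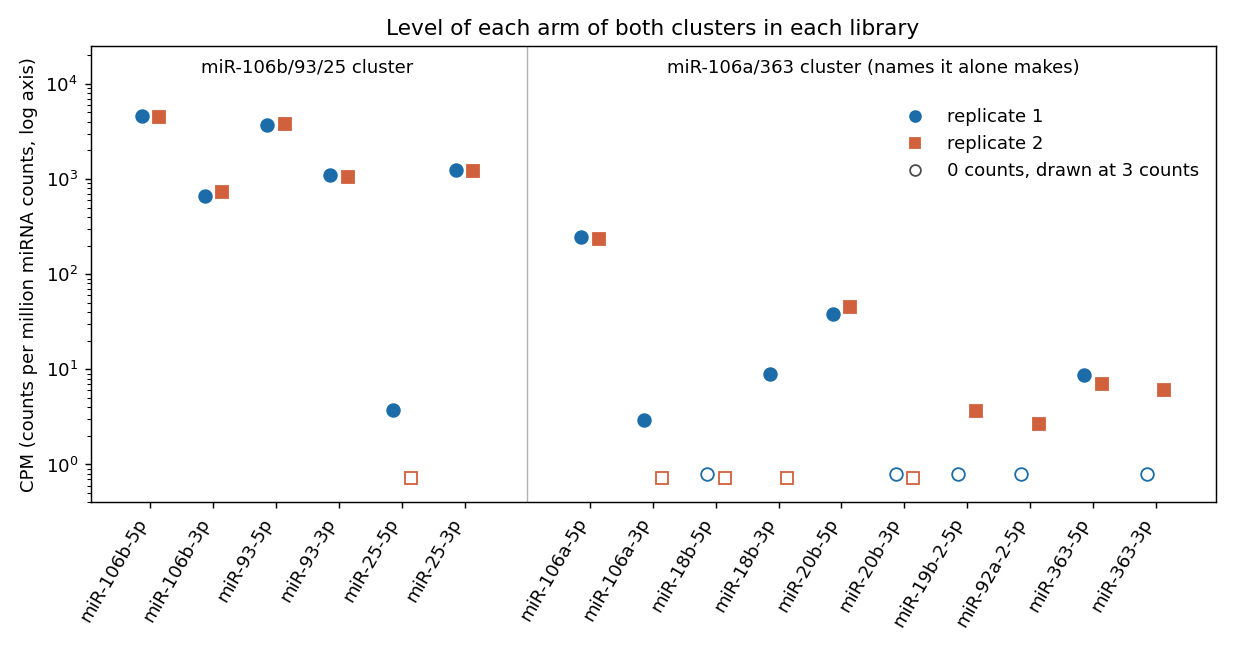
CPM on a log axis (vertical) of every arm of the miR-106b/93/25 cluster and of every arm that the miR-106a-363 cluster alone makes (horizontal), with 1 point per library and open points for 0 counts, drawn at 3 counts. Of the miR-106b/93/25 names, 5 of 6 lie above every X-linked name, and most X-linked names are open in at least 1 library.

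On the X chromosome, mmu-miR-106a-5p accounted for most of the counts under names that only this cluster makes. It had 243.6 CPM in replicate 1 and 234.3 CPM in replicate 2 (920 and 966 counts), or 79.5% ± 1.43 of all counts that only this cluster can give (SD, n = 2). mmu-miR-20b-5p had 38.1 and 44.6 CPM (144 and 184 counts). miR-106a-5p had 5.82 ± 0.805 times its counts (SD, n = 2). mmu-miR-363-3p had 0 counts in replicate 1 and 25 in replicate 2, which is at least 7.63-fold higher in replicate 2 against 3 counts in the other library. mmu-miR-18b-5p was at 0 in both.

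The other arms of the X cluster were as thin. miR-363-5p, the only one of the 6 other arms present in both libraries, had 33 and 29 counts. The X-linked hairpin mir-363 was therefore counted as its 5p arm alone in replicate 1 and nearly evenly in replicate 2. miR-18b-3p had 34 counts in replicate 1 and 0 in replicate 2, and miR-106a-3p had 11 and 0. miR-19b-2-5p (0 and 15) and miR-92a-2-5p (0 and 11), the arms that tell the X copies of miR-19b and miR-92a from the others, appeared in replicate 2 only. miR-20b-3p was found in neither library. Presence in 1 library was common at such counts: of 448 names with 10 to 40 counts in all, 224 were found in a single library. Of these other arms, 2 had enough counts for the test between libraries given below. It called miR-18b-3p (adjusted exact binomial p = 7.14e-11) and not miR-363-5p (adjusted exact binomial p = 0.498), beside 70.6% of all names tested. Why names were missing from a library was not tested.

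Each X-linked member with counts in both libraries was a small fraction of its near-identical miR-17-92 partner. miR-106a-5p had 5.22% of the counts of miR-17-5p in replicate 1 and 4.91% in replicate 2, with 1 base between them. miR-20b-5p had 0.780% and 0.977% of those of miR-20a-5p. miR-18a-5p had 5389 and 5184 counts against 0 for miR-18b-5p, at least 1728-fold more in each library against 3 counts. The part that misassigned or misread miR-17-5p and miR-20a-5p reads have in the X-linked counts was not tested. Whether miR-18b-5p reads were counted as miR-18a-5p was not tested either, and the 1728-fold limit does not cover it.

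The order of the members by mean CPM was miR-106b-5p, miR-93-5p, miR-25-3p, miR-93-3p, miR-106b-3p, miR-106a-5p, miR-20b-5p, miR-363-3p, miR-25-5p and miR-18b-5p. Down to miR-363-3p each neighbour differed from the next by more than the larger SD, and the libraries did not overlap. The last 3 names could not be put in order: miR-363-3p, miR-25-5p and miR-18b-5p overlapped.

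The cluster was then read by seed, the unit that pairs with targets. In the AAAGUGC family, which took 1.80% ± 0.0165 of all miRNA counts (SD, n = 2), the Mcm7 cluster supplied nearly as much as miR-17-92. miR-106b-5p and miR-93-5p together held 45.7% and 46.1% of the family in replicates 1 and 2 (Wilson 95% intervals 45.3% to 46.0% and 45.8% to 46.5%). miR-17-5p and miR-20a-5p held 52.8% and 52.3%, more in both libraries. miR-106a-5p and miR-20b-5p held 1.56% in each. The leading 3 names were close: miR-20a-5p had 4889 and 4567 CPM, miR-17-5p had 4665 and 4775 CPM, and miR-106b-5p was below both in each library. The counts of miR-17-5p were 1.05 ± 0.0370 times those of miR-106b-5p, and the counts of miR-20a-5p were 1.05 ± 0.0308 times (SD, n = 2). The seventh RefSeq name with this seed, miR-6383, was at 0 in both libraries.

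In the AUUGCAC family the cluster held less. This family took 0.460% ± 0.00441 of the counts (SD, n = 2). miR-25-3p held 27.2% of it in replicate 1 (26.5% to 27.8%) and 26.4% in replicate 2 (25.8% to 27.1%). miR-92a-3p, which comes from miR-17-92 and from the X cluster, had 1.86 ± 0.0788 times the counts of miR-25-3p (SD, n = 2). miR-32-5p, from a gene outside all of these clusters, was close under it: miR-25-3p had 1.16 ± 0.0117 times its counts, and was higher in both libraries. miR-363-3p and miR-92b-3p together were a trace, with at most 33 counts in a library each, and miR-367-3p was at 0 in both. In the AAGGUGC family every count was named miR-18a-5p.

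**Figure D2:**
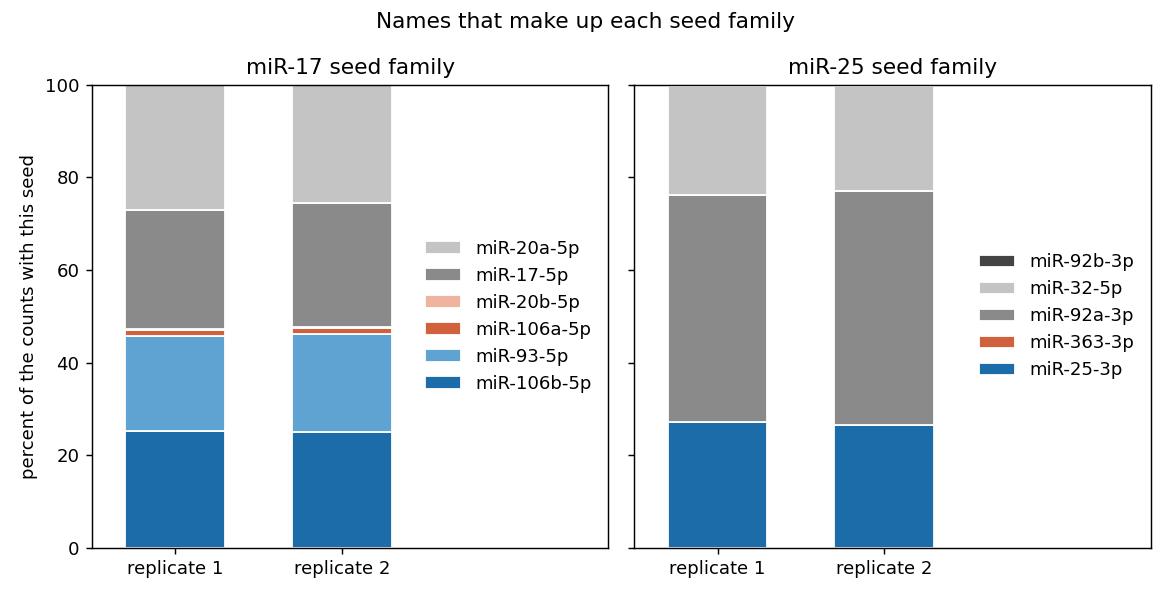
Share of the counts of each seed family (vertical, percent) held by each name, in each library (bars). Blue parts are miR-106b/93/25 names and orange parts miR-106a-363 names. miR-106b-5p and miR-93-5p hold 45.7% and 46.1% of the AAAGUGC counts (miR-17 seed family), and miR-25-3p holds 27.2% and 26.4% of the AUUGCAC counts (miR-25 seed family).

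Set beside miR-17-92, the cluster most like it, the Mcm7 cluster was smaller and made up differently. Its counts were 0.514 ± 0.00144 times those of the 12 miR-17-92 names (SD, n = 2). AAAGUGC guides made up 73.4% and 73.2% of the miR-106b/93/25 counts, against 43.5% and 42.8% in miR-17-92. AUUGCAC guides made up similar parts, 11.0% and 10.9% against 10.2% and 10.7%. The difference lay largely with miR-19a-3p and miR-19b-3p, 34.9% and 36.6% of the miR-17-92 counts, which have no counterpart in Mcm7. Since miR-19b-3p and miR-92a-3p also come from the X cluster, the miR-17-92 total is an upper value. By hairpin, mir-106b gave 46.2% ± 0.287 of the Mcm7 cluster, mir-93 gave 42.8% ± 0.415 and mir-25 gave 11.0% ± 0.128 (SD, n = 2). With both arms added, mir-106b had 1.08 ± 0.0172 times the counts of mir-93, a narrower gap than between the 5p arms, because miR-93 had the larger second arm.

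The arms were compared within each hairpin. The 3 hairpins from 1 transcript differed in which arm had more counts and by how much. These are shares of recovered reads, and strand choice itself was not measured. In miR-106b the 5p arm held 87.4% and 85.9% of counts in replicates 1 and 2 (Wilson 95% intervals 86.9% to 87.8% and 85.4% to 86.3%). In miR-93 it held 77.2% (76.6% to 77.8%) and 78.3% (77.7% to 78.8%). In miR-25 the 3p arm held 99.7% (99.5% to 99.8%) and 100% (99.9% to 100%). Each of these, and the miR-106a hairpin with 98.8% and 100% on the 5p arm, passed the exact two-sided binomial test of equal arms in both libraries, with Benjamini-Hochberg adjustment over 164 hairpins. So did 91.5% of all hairpins tested, so passing sets none of them apart.

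The size of the minor arm did vary. miR-93 had 22.3% of its counts on its minor arm on average, and ranked 37 of the 164 hairpins by this share. miR-106b had 13.4% and ranked 54. The median hairpin had 5.44%. miR-25 had 0.149% and ranked 151. In miR-17-92 the closest cases were miR-17 with 12.01% and miR-18a with 11.1%. The miR-20b, miR-18b and miR-363 hairpins had too few counts, or too few named arms, to be tested.

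**Figure D3:**
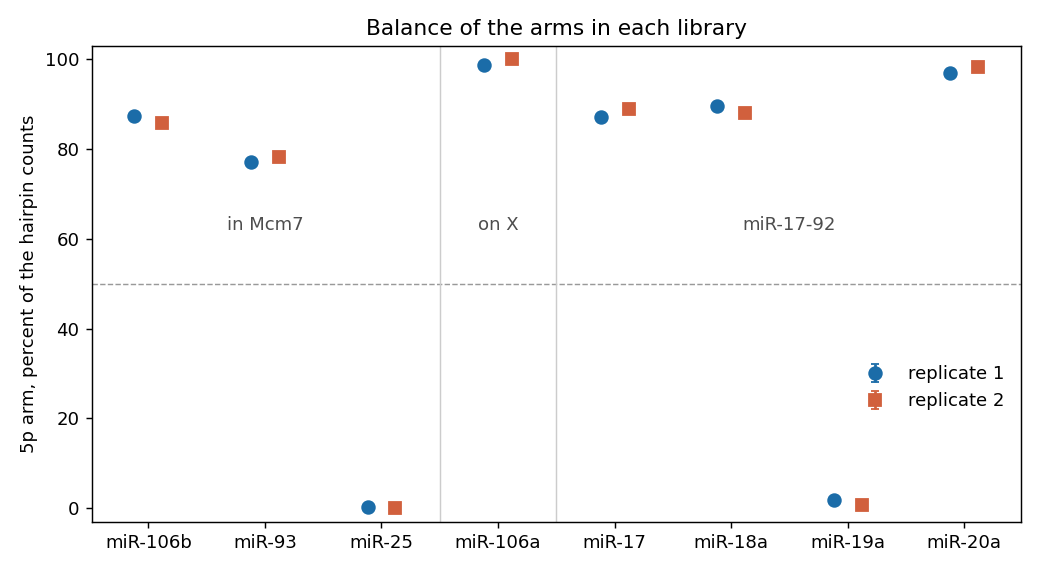
Share of a hairpin's counts on its 5p arm (vertical, percent) for hairpins of the 3 clusters (horizontal), with 1 point per library. Bars are Wilson 95% intervals and are mostly smaller than the points. miR-93 lies lowest of the 5p-dominant hairpins, at 77.2% and 78.3%, and miR-25 lies near 0.

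Between the libraries, the 7 members with counts in both had log2 ratios from -0.056 to 0.23, while miR-363-3p (0 and 25 counts) and miR-25-5p (14 and 0 counts) were each found in 1 library. An exact binomial test of each name against the library totals, with Benjamini-Hochberg adjustment over the 1002 names that averaged 10 counts or more, called 4 of the 8 members tested. Over all names it called 70.6%, so the members' count is no result about them. At an adjusted p of 0.01 it called 2 members and 63.7% of all names, and with a difference of 2-fold or more it called miR-363-3p alone and 44.0% of all names. The test measures reads against counting error in 2 libraries of 1 condition. Among the 4, miR-106b-3p was higher in replicate 2, with a log2 ratio of 0.15 (exact 95% interval 0.072 to 0.23, adjusted exact binomial p = 0.000263). miR-93-5p had a log2 ratio of 0.039 (adjusted exact binomial p = 0.0296). miR-106b-5p had one of -0.038 (adjusted exact binomial p = 0.0183), and with DESeq2 size factors that call was lost at -0.020 (adjusted exact binomial p = 0.234). miR-363-3p was called on its 0 and 25 counts (adjusted exact binomial p = 2.96e-07).

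The other 4 tested members did not pass. miR-93-3p had a log2 ratio of -0.05, miR-25-3p of -0.020, miR-106a-5p of -0.056 and miR-20b-5p of 0.23, with adjusted exact binomial p from 0.138 to 0.548. For size, the SD of the log2 ratio over all names was 0.22 above a mean of 10000 counts, the range of miR-106b-5p and miR-93-5p. It was 0.33 from 1000 to 10000 counts, the range of miR-106b-3p, miR-93-3p and miR-25-3p. From 300 to 1000 counts, where miR-106a-5p lies, it was 0.48, and from 100 to 300 counts, where miR-20b-5p lies, it was 1.04. All 7 members with counts in both libraries had log2 ratios smaller in size than the SD of their range. So did most names, so this is no result about the members. The median size of the log2 ratio over all names was 0.053 above 10000 counts and 0.16 from 1000 to 10000. It was 0.30 from 300 to 1000 counts and 0.59 from 100 to 300.

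**Figure D4:**
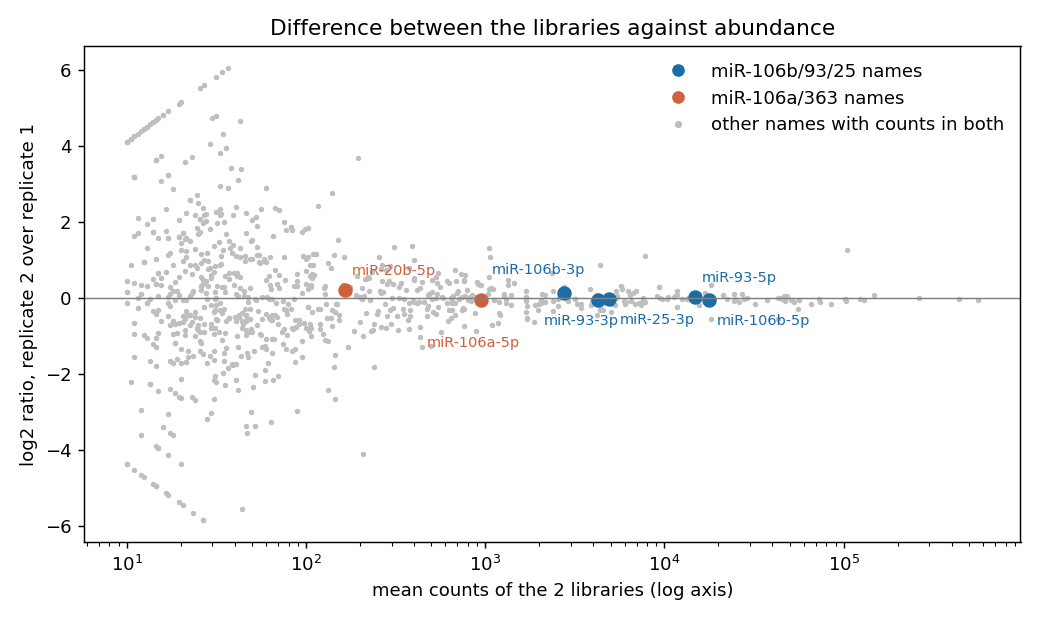
Log2 ratio of replicate 2 over replicate 1 after scaling by library totals (vertical) against the mean counts of both libraries (horizontal, log axis), for names with counts in both and a mean of at least 10. The 7 labelled members lie between -0.056 and 0.23, while names under a mean of 100 counts spread over several log2 units.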

How the data were processed

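miRNAs were counted in 2 streptavidin pulldown libraries of 1 group. The authors deposited, per library, a table of mature miRNA names with raw counts, which are whole numbers and were not normalized. Per the submitters' processing notes, cutadapt, Novoalign and the build mm10 were used; their roles and the handling of PCR copies, chimeric reads and multiple matches are not given in the sources used here. Names missing from a table were set to 0. Rows that name no miRNA (0.00265% and 0.000218% of counts) were left out.

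CPM used the miRNA totals, 3776893 and 4122955. Names were tested between libraries by exact two-sided binomial tests. So were arms within hairpins (both arms named, at least 100 counts in each library). Both used Benjamini-Hochberg adjustment over the whole table and a threshold of 0.05. Only the test between libraries was tried on simulated data, which held 2-fold changes and counting error alone. That trial cannot show how the test behaves at the larger spread of these libraries. Shares carry Wilson intervals and log2 ratios exact (Clopper-Pearson) ones. Sequences, seeds and gene positions came from RefSeq GRCm38.p6. Edits count substitutions, insertions and deletions. Alternatives used TMM factors (edgeR 4.0.16) and DESeq2 1.42.0 size factors (R 4.3.3), other totals, minimums and thresholds. Computations used Python 3.11.15, scipy 1.17.1, numpy 2.4.6, pandas 2.3.3 and matplotlib 3.10.9.

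The text names all members, the other arms of both clusters, the miR-17-92 names, names sharing a member's seed, the rank neighbours of the most abundant member and miR-31-5p. Members and lists were chosen with earlier results of these data known.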

Additional observations from a re-analysis of the deposited data

How the results depend on the processing

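The share of the miR-106b/93/25 cluster was 1.31% of all other counts once miR-31-5p was removed. It was 1.13% of a total limited to names averaging 10 counts or more, a shift that exceeded only its very small SD. The share of the X-linked members was 0.0330% once miR-31-5p was removed and 0.0300% with all names that cluster alone makes, a setting added after seeing the data. TMM and DESeq2 factors moved neither share by more than its SD. The number of names that differed between the libraries, 707, was 254 among names averaging 100 counts or more, a smaller set, and 441 among differences of 2-fold or more. Of the members, 2 differed at an adjusted p of 0.01 (63.7% of all names tested) and 1 by 2-fold or more (44.0%). TMM factors gave 4 members and 708 of 1002 names, and DESeq2 factors 3 members and 701 names. A mean of 100 counts or more gave 3 members. In the main test, 63.9% to 81.4% of names were called in each abundance range from 100 counts up. No count minimum gave 5 members and 903 of 1477 names. Beside these shares, the member counts are no result about the members. The seed shares, the ratios between members and clusters and the arm shares moved by less than their SD when counts were summed over both libraries. Leaving out either library gives the value of the other, with no test: 1.125% to 1.126% for the miR-106b/93/25 cluster, 0.0282% to 0.0285% for the X-linked members and 8 members with 10 or more counts either way. The X-linked names other than miR-106a-5p and miR-20b-5p rest on few reads, at 34 counts or fewer in a library. No paired analysis was possible because both libraries belong to 1 group.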
